A study of Mus musculus with 28 samples.

Results

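The antigen receptor loci are the stretches of the mouse genome from which immunoglobulin and T cell receptor genes are assembled. They were read as every 5 kb window starting at a multiple of 5000 bp of the build mm10 in 4 loci. The immunoglobulin kappa light chain locus (Igk) covers 3300 kb of chromosome 6 from position 67500001, the immunoglobulin heavy chain locus (Igh) 2900 kb of chromosome 12 from 113200001, the T cell receptor alpha and delta locus (Tcra/Tcrd) 1900 kb of chromosome 14 from 52400001, and the T cell receptor beta locus (Tcrb) 750 kb of chromosome 6 from 40850001. Together they hold 1770 of the 526520 windows of the autosomes and the X chromosome, namely 660 of Igk, 580 of Igh, 380 of Tcra/Tcrd and 150 of Tcrb. Within these loci every window was taken, whatever its values. The loci, and the gene lists used below, were chosen with earlier results of these data known.

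Histone H3 trimethylated at lysine 9 (H3K9me3) and acetylated at lysine 9 (H3K9Ac) were mapped by immunoprecipitating chromatin cut with micrococcal nuclease, in 4 groups of cells. Setdb1 KO B16 cells were B16OVA, a mouse melanoma line, transduced with pCRISPR-v2-puro carrying a guide against Setdb1, which encodes an H3K9 methyltransferase, and control B16 cells were B16OVA with the empty vector. Setdb1 KO MC38 cells were MC38, a mouse colon adenocarcinoma line, with the same guide-bearing construct, and control MC38 cells were MC38 with the empty vector. Cells of all 4 groups thus carried the vector and were grown in puromycin. Each group gave 3 numbered libraries per mark, 24 in all, and 4 input samples were not analysed here. Whether a KO population was 1 clone or a pool, and whether the numbered libraries came from separate cultures, is not given in the sources used here, and the spread behind every p-value here is that between libraries, which may be technical.

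Each locus holds an array of variable (V) segments, a cluster of joining (J) and, in Igh, Tcrb and Tcrd, diversity (D) segments, and 1 or more constant (C) genes. The Rag recombinase joins 1 segment of each kind in developing lymphocytes, and only the joined gene is normally expressed as a receptor. Neither a melanocyte nor a gut epithelial cell makes these receptors, and segments in such cells are normally unjoined and silent. H3K9me3 is a mark of compacted, silent chromatin, laid down by Setdb1 and by other methyltransferases. H3K9Ac marks active promoters and enhancers. By the RefSeq annotation of GRCm38.p6, the assembly of mm10, Igk holds 162 V segments, 5 J segments and 1 constant gene, and Igh holds 183 V, 24 D and J, and 8 constant genes. Tcra/Tcrd holds 136 V, 64 D and J, and 2 constant genes, and Tcrb holds 35 V, 16 D and J, and 2 constant genes. Bystander genes with no part in the receptors lie within them, 2 protein-coding ones in Igk, 4 in Igh, 8 in Tcra/Tcrd and 14 in Tcrb, where most are trypsin genes.

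The values are reads in islands, which are stretches of 200 bp bins enriched for reads, as called in each library. A window with no island has a value of 0, which says that no island was called there and does not measure an absence of reads. Levels are given as RPM, island reads per 1000000 reads counted in windows after TMM scaling, or as the share of a region under islands. Islands held 15198930 to 45414798 reads in the 12 H3K9me3 libraries and 28451633 to 78082966 in the 12 H3K9Ac libraries. H3K9me3 islands covered from 8.18% of the genome, in MC38 KO replicate 3, to 21.4%, in MC38 KO replicate 1, and H3K9Ac islands 14.4% to 17.9%. Around Setdb1 itself the H3K9Ac level in RPM was 70.6, 76.8 and 86.6 in B16 KO and 74.5, 73.4 and 80.1 in B16 control, and 114, 114 and 107 in MC38 KO and 100.8, 85.4 and 103 in MC38 control. Neither mark reads the cut of a guide, so these values check nothing of the knockout. All 7 melanocyte genes of a marker list, among them Tyr, Tyrp1 and Dct, had less H3K9Ac in MC38 control than in B16 control libraries (summed 205 to 285 RPM in MC38 control and 959 to 1580 RPM in B16 control). Of 9 leukocyte genes 8 were tested for H3K9Ac and 0 differed between the lines' control libraries (summed 122 to 161 RPM in MC38 control and 124 to 137 RPM in B16 control), with 0 at an unadjusted p under 0.05 by edgeR and 0 by DESeq2. Of the 9, 4 had H3K9Ac islands in all 12 libraries. The B cell gene Ms4a1 was the 1 without any, and it had no H3K9me3 island either.

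Sequences of 39 promoters in the loci were in the RefSeq table (GRCm38.p6), each 300 bases long with 250 before the gene's start. They belong to bystander genes and to other transcripts of the loci. Of these, 5 are printed here as chosen examples, which do not stand for all 39. The promoters of Rpia, Dad1 and Zfp386 lay under H3K9Ac islands in all 12 libraries. Those of Prss1 and Try4 lay under none, and under H3K9me3 islands in 4 and 3 of 12 libraries, all of them B16. Rpia (ribose-5-phosphate isomerase of the pentose phosphate pathway, chr6:70792126-70792425, minus strand) lies at the end of Igk, Dad1 (a subunit of the oligosaccharyltransferase, chr14:54253880-54254179, minus strand) at the end of Tcra/Tcrd, and Zfp386 (a zinc finger gene, chr12:116047474-116047773, plus strand) near the end of Igh. Prss1 (chr6:41458680-41458979, plus strand) and Try4 (chr6:41302022-41302321, plus strand) are pancreatic trypsin genes inside Tcrb. Capitals mark CG dinucleotides and the motif TATAAA, searched on both strands.
Rpia: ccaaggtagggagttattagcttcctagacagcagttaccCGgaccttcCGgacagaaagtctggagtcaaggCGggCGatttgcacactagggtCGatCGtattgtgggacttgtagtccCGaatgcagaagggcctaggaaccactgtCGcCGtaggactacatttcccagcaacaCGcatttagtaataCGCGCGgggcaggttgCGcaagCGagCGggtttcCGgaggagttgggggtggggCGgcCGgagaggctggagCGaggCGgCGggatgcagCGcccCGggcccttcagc
Dad1: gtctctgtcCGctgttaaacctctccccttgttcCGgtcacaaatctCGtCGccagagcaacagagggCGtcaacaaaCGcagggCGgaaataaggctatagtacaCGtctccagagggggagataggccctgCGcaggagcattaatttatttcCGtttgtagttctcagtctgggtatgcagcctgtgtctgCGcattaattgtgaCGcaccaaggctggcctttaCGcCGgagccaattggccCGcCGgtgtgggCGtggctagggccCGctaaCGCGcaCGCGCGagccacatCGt
Zfp386: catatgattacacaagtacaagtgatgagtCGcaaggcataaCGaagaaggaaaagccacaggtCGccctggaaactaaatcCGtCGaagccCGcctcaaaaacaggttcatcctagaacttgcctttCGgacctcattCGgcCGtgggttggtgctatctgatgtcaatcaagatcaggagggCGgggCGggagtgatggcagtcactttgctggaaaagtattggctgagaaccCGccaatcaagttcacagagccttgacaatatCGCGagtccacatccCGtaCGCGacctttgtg
Prss1: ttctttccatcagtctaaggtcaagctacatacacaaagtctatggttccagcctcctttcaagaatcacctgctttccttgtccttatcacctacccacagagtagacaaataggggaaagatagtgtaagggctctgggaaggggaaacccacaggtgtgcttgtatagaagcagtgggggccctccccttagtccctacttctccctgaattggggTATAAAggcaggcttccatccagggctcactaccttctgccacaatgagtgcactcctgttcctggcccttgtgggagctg
Try4: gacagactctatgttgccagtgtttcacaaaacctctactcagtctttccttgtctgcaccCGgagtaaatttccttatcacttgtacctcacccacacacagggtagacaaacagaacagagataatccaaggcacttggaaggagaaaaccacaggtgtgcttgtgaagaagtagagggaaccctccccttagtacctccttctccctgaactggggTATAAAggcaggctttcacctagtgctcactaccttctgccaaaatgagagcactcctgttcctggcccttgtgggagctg
Rpia and Dad1 hold 24 CG dinucleotides each and Zfp386 17, against a median of 7 over all 32851 promoters of the table. Prss1 holds none and Try4 holds 1, and both hold TATAAA.

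H3K9me3 islands were found at 1486 of the 1770 windows in at least 1 library. These were 645 of 660 windows of Igk, 550 of 580 of Igh, 145 of 150 of Tcrb and 146 of 380 of Tcra/Tcrd. H3K9Ac islands reached 367 windows, namely 70 of Igk, 195 of Igh, 48 of Tcrb and 54 of Tcra/Tcrd. In every one of 12 libraries H3K9me3 lay on 134 windows, 82 of them in Igk, 50 in Igh, 2 in Tcra/Tcrd and 0 in Tcrb, and H3K9Ac on 31. Windows were tested where the 12 libraries of a mark averaged 10 or more island reads, which held for 1437 windows in H3K9me3 and 323 in H3K9Ac.

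**Figure D1:**
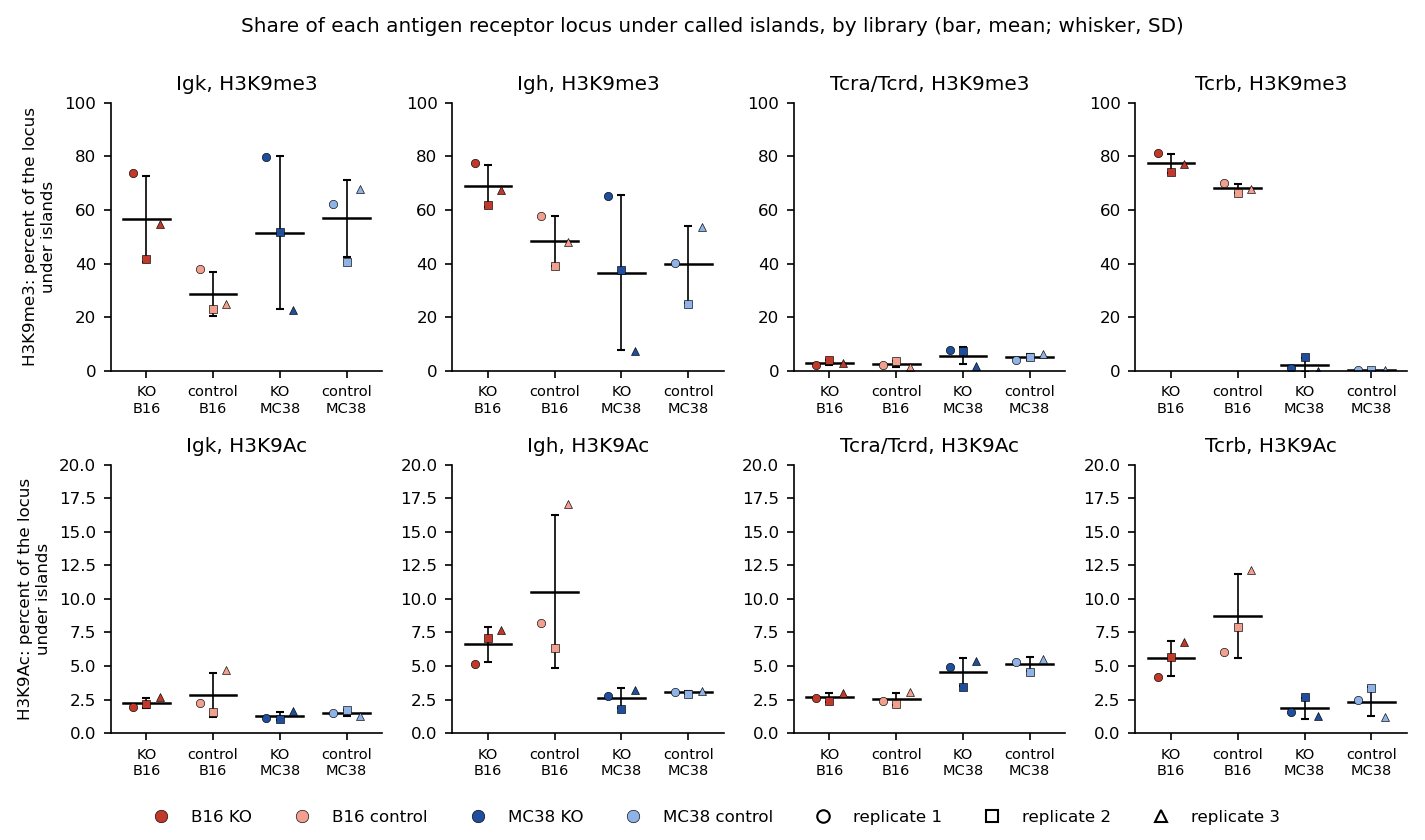
Share of each locus (percent of its length) under islands of H3K9me3 and H3K9Ac in every library, 1 point per library, for B16 KO, B16 control, MC38 KO and MC38 control. Tcrb lay under H3K9me3 by 66.3% to 81.1% in the 6 B16 libraries and by 0% to 5.07% in the 6 MC38 libraries.

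Setdb1 KO B16 libraries had more of Igk under H3K9me3 than control B16 libraries. Islands covered 73.8%, 41.9% and 54.7% of the locus in B16 KO replicates 1 to 3, and 38.1%, 23.05% and 24.9% in B16 control replicates 1 to 3. Every KO library was above every control library, although KO replicate 2 lay close to control replicate 1. The mean difference was 28.1 points (56.8 ± 16.1% in KO and 28.7 ± 8.24% in control, SD, n = 3 each), and the summed level was 4770 ± 1576 RPM in KO and 2477 ± 787 RPM in control, a log2 difference of 0.94. The exact two-sided permutation p was 0.1 for both, the smallest that 3 against 3 libraries allow, and 0.533 adjusted over the 16 tests of KO against control. H3K9me3 also covered more of chromosome 6 as a whole, 43.3%, 36.1% and 41.0% in KO and 31.9%, 29.2% and 29.8% in control. Over the genome it covered 16.4%, 13.9% and 15.4% in KO and 12.4%, 12.4% and 10.8% in control, again without overlap. With the locus scaled to the island reads of the rest of its chromosome, the log2 difference was 0.62 and the groups overlapped (exact permutation p = 0.2). With total island reads as the scale it was 0.68 (exact permutation p = 0.2).

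The higher coverage of Igk in KO ran along its whole length. All 33 bins of 100 kb had a higher mean in KO than in control B16 libraries, by 1.27 to 49.6 points with a median of 28.1. In 17 of the 33 bins, 51.5%, no KO library overlapped a control library, whereas over the genome 10.2% of 22901 bins lay above control in this way and 9.79% below. The bin from 68800001 to 68900000, chosen after its values were seen, was covered by 91.6%, 35.4% and 52.4% in KO and by 28.2%, 3.8% and 4.8% in control. The last bin, from 70700001, which holds the J segments, Igkc and Rpia, was covered by 27.4%, 38.6% and 37.8% in KO and by 34.4%, 34.0% and 31.6% in control, with overlap. Tested as 100 kb windows with edgeR's quasi-likelihood test, 0 windows of the loci were called in B16 at a Benjamini-Hochberg adjusted p under 0.05 (0.151% of 22496 windows were called higher and 0.471% lower). At an unadjusted p under 0.05 there were 13 of 86 tested, of which 12 were among the 33 of Igk, against 2211 of 22496 over the genome. DESeq2 called 1, which was lower.

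**Figure D2:**
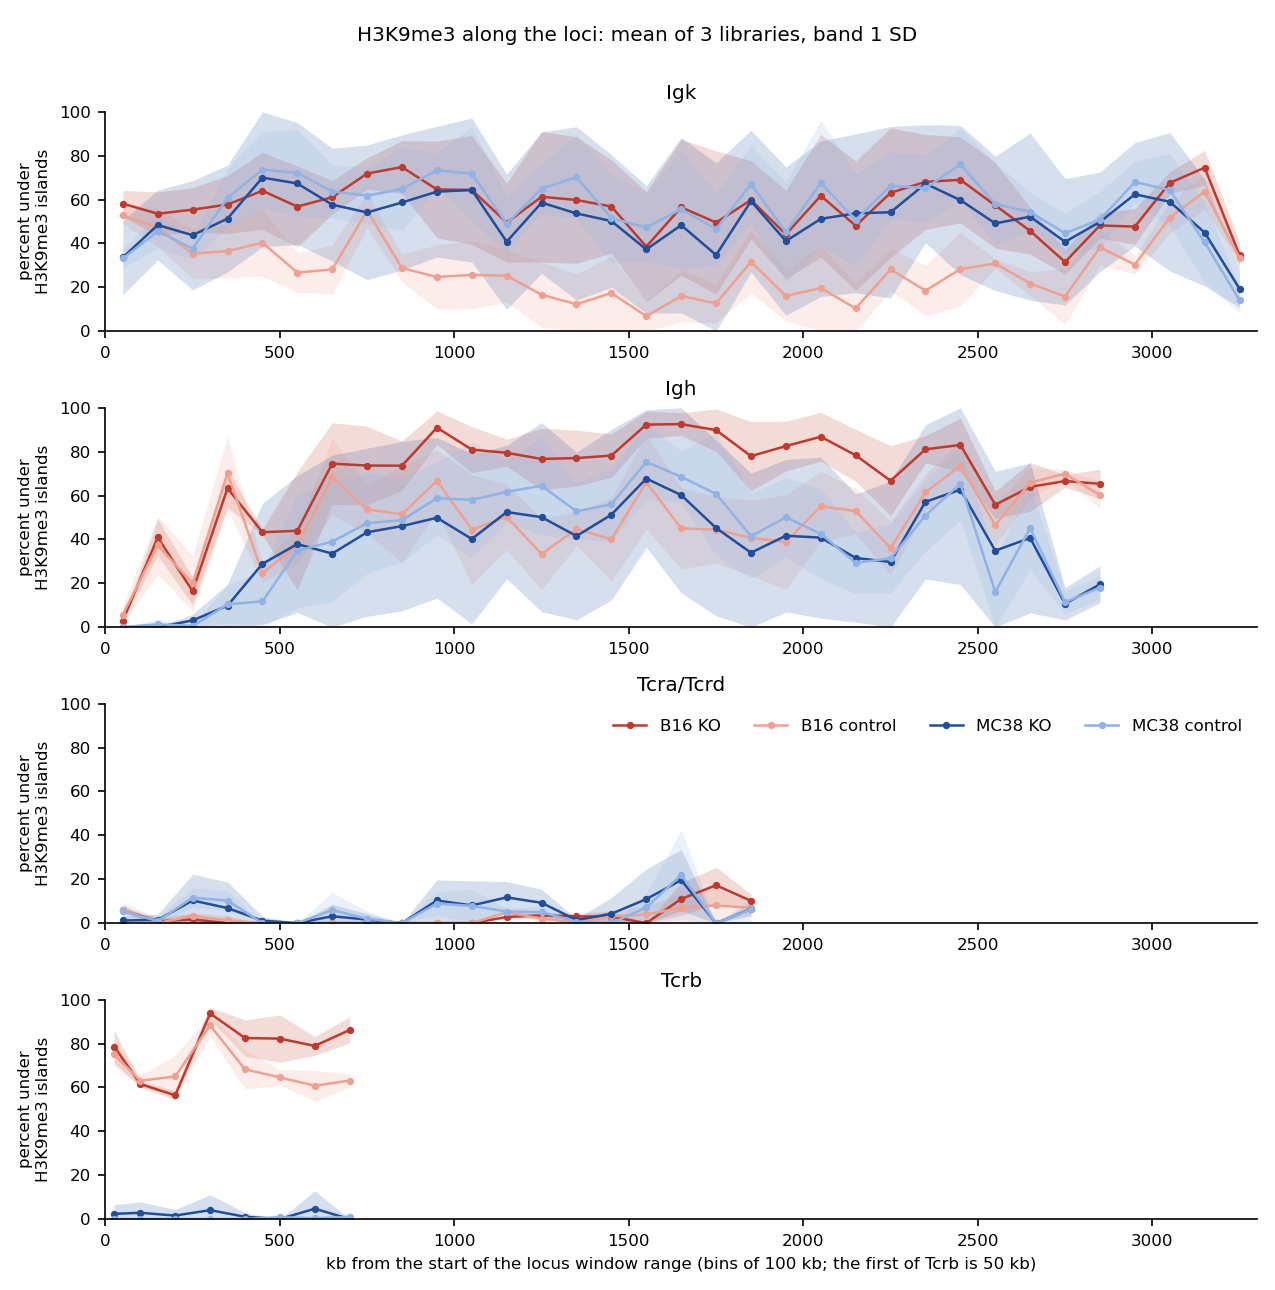
Mean share of each 100 kb bin under H3K9me3 islands (percent) along the 4 loci, by distance from the locus start in kb, for B16 KO, B16 control, MC38 KO and MC38 control (n = 3 libraries each, bands of 1 SD). In Igk the B16 control line runs below the other 3 over most of the array, and in Tcrb both MC38 lines stay near 0.

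The V segments of Igk followed the locus and the J and C end did not. Over the 177 windows with a V segment, islands covered 71.4%, 31.9% and 48.7% in B16 KO and 24.3%, 15.2% and 17.7% in B16 control libraries, again without overlap. Windows between genes, 473 in all, were covered by 75.7%, 45.9% and 57.5% in KO and 43.5%, 25.9% and 27.5% in control. Both windows with J segments or Igkc lay fully under islands in all 6 B16 libraries. The J window at 70720001 to 70725000 held 16.1, 19.5 and 17.2 RPM in B16 KO and 16.7, 17.6 and 16.4 RPM in B16 control libraries. In MC38 the same window held 7.12, 10.2 and 11 RPM in KO and 4.29, 12.2 and 11.2 RPM in control libraries.

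Single 5 kb windows of Igk that had no island in any of 3 B16 control libraries carried H3K9me3 in B16 KO libraries. edgeR's quasi-likelihood test called 16 windows of the loci in B16 KO against control, 15 in Igk and 1 in Igh, all higher, where 0.293% of all 269905 windows tested were called higher and 0.0897% lower. The median fitted log2 change over tested windows was 1.22 in Igk, 0.46 in Igh, 0.07 in Tcrb and 0 in Tcra/Tcrd, and 0 over all windows tested, where the fitted value of a window without islands in 1 group depends on the prior count. The window at 68020001 to 68025000, between genes, held 14.7, 13.8 and 11.5 RPM in B16 KO libraries and no island in the 3 B16 control libraries (adjusted p = 0.00137). The window at 68385001 to 68390000, which overlaps the annotated gene Gm5310, held 12.4, 8.71 and 12 RPM in B16 KO and no island in B16 control (adjusted p = 0.00137). Windows at 69695001 (12.5, 7.27 and 9.18 RPM in KO, adjusted p = 0.00201), 70020001 (12.8, 12 and 10.7 RPM, adjusted p = 0.00223), 68330001 (9.5, 7.27 and 10.8 RPM, adjusted p = 0.0026) and 69140001 (14.6, 9.78 and 11.2 RPM, adjusted p = 0.00297) had none in B16 control either. Of the 15 windows of Igk, 3 held a V segment, Igkv12-66, Igkv12-42 and Igkv5-39, which the rule for naming did not pick.

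All 16 called windows had islands in all 6 MC38 libraries. Fitted in the 6 B16 libraries alone, 0 windows of the loci were called by edgeR, with 117 at an unadjusted p under 0.05. In the fit of all 12 libraries, 143 of 1437 tested windows of the loci had an unadjusted p under 0.05, against 20868 of 269905 over the genome. With stricter islands 8 were called. In MC38 the window at 68020001 held 13.1, 12.6 and 8.83 RPM in KO and 15.2, 12.4 and 14.2 RPM in control libraries. The difference between the lines' KO effects was called in 16 windows of the loci, 14 higher in B16 in Igk and, in Igh, 1 in each direction (0.318% of all windows were called higher and 0.0982% lower). For the window at 68020001 it had an adjusted p of 0.00326 by edgeR's quasi-likelihood test. Leaving out B16 control replicate 1 raised the count of KO calls in B16 to 51, and leaving out MC38 KO replicate 3 raised it to 39. DESeq2, on the 906 windows of the loci whose fit converged, called 98, of which 97 were higher. Counts under alternative fits, those of DESeq2 among them, are given here and below without the share over all windows in the same fit.

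Counted without a test, 52 of the 635 Igk windows with an island in any B16 library, 8.19%, had at least 500 bp under islands in all 3 KO libraries and none in control, where 2.16% of the genome's windows did. The reverse was seen in 0 Igk windows (1.25% over the genome). Over all 4 loci 65 windows had H3K9me3 in KO alone and 3 in control alone by this count. Windows under H3K9me3 in all 3 libraries numbered 380 in B16 KO and 167 in B16 control within Igk, and 71411 and 58899 over the genome.

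Setdb1 KO MC38 libraries did not separate from control MC38 libraries in Igk. Islands covered 79.9%, 52.0% and 22.7% in MC38 KO replicates 1 to 3, and 62.1%, 40.5% and 67.9% in MC38 control replicates 1 to 3. KO replicate 1 was the highest and KO replicate 3 the lowest of the 6, in the order of their genome-wide coverage. The summed level differed by -0.37 on the log2 scale (exact permutation p = 0.7), and without KO replicate 3 by 0.09. No bin of 100 kb in any of the 4 loci separated KO from control in MC38 by coverage (0.454% of bins did above and 1.7% below over the genome). edgeR's quasi-likelihood test called 0 bins of the loci in MC38 (0.0178% of all were called higher and 0.0889% lower), and DESeq2 called 0. At an unadjusted p under 0.05 there were 7 of 86 tested, of which 6 were in Tcrb, against 1165 of 22496 over the genome. For the difference between the lines' KO effects edgeR also called 0 (0.231% of all were higher and 0.396% lower), as did DESeq2. There 16 of 86 had an unadjusted p under 0.05, against 2273 of 22496 over the genome.

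MC38 control libraries had more H3K9me3 in Igk than B16 control libraries in part of the array. Of 33 bins, 19 were above B16 control without overlap and 2 below, where 22.8% of the genome's bins were above and 27.9% below. edgeR's quasi-likelihood test called 45 of 638 tested windows of Igk higher and 1 lower in MC38 control (4.29% of all windows were called higher and 2.83% lower). At 100 kb it called 5 bins of Igk higher (5.69% higher and 4.1% lower over all), of which 0 were called with DESeq2's size factors as the scale. The bin from 69800001 to 69900000, where the fitted difference was the largest of the 5, was at 190 RPM in MC38 control and 45.0 RPM in B16 control libraries, a log2 difference of 2.08 (adjusted p = 0.0363). Over both genotypes the locus sums were 4850 ± 1896 RPM in MC38 and 3624 ± 1679 RPM in B16 (SD, n = 6 each), a log2 difference of 0.43 (exact permutation within genotype, p = 0.275). Chromosome 6 was covered by 12.7% to 25.6% in MC38 and by 29.2% to 43.3% in B16 libraries, and scaled to the rest of it the difference was 1.30 (adjusted p = 0.008, exact permutation).

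Igh resembled Igk in its V array. Islands covered 77.5%, 62.0% and 67.3% of the locus in B16 KO and 58.0%, 39.3% and 48.1% in B16 control libraries, and the groups did not overlap. The mean difference was 20.5 points, and the sums were 5594 ± 1023 RPM in KO and 3986 ± 829 RPM in control (log2 difference 0.49, exact permutation p = 0.1, the smallest possible, adjusted 0.533). Scaled to the rest of chromosome 12, whose coverage was 32.3%, 25.6% and 28.8% in KO and 23.2%, 21.3% and 20.8% in control, the log2 difference was 0.19 (exact permutation p = 0.4). With total island reads as the scale it was 0.24 (exact permutation p = 0.6). In 14 of 29 bins of 100 kb no KO library overlapped a control library, all higher in KO (10.2% of the genome's bins were above in this way and 9.79% below), and all 14 lay between 400 and 2400 kb from the locus start. KO replicate 1 had 1 island of 180 kb in Igh, and the longest island of the other 5 B16 libraries was 42.4 to 53.6 kb.

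In every library H3K9me3 covered more of the windows with a heavy chain V segment than of those with a D, J or constant segment. Over 182 windows with a V segment, islands covered 83.2%, 62.8% and 70.6% in B16 KO and 58.5%, 33.7% and 45.7% in B16 control libraries. Over the 26 windows with D, J or constant segments they covered 1.23%, 10% and 6.46% in KO and 0.462%, 9.08% and 20.9% in control. In MC38 those 26 windows were covered by 0%, 0% and 2.77% in KO and by 0%, 1.23% and 0% in control libraries. Around the constant genes the mark was found between these windows in B16, where the bin from 113300001 to 113400000 was covered by 31.4%, 44.6% and 46.8% in KO and 31.6%, 27.8% and 52.6% in control libraries. The window at 114770001 to 114775000, with Ighv1-24 and the transcript Gm40899, had the highest mean level of Igh together with the next 2 windows, which lay under the same islands. It held 21.6, 19.7 and 18.7 RPM in B16 KO, 21.5, 18.4 and 19.1 RPM in B16 control, 17.5, 18.2 and 18.6 RPM in MC38 KO and 21.9, 20.6 and 21.4 RPM in MC38 control libraries. H3K9me3 lay there in all 12 libraries, and in MC38 every KO library was below every control library, which did not pass the test (log2 difference -0.24, adjusted p = 0.882, edgeR's quasi-likelihood test).

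The 1 Igh window called in B16, at 114675001 to 114680000, holds Ighv1-17. It had 15.4, 13.6 and 13.9 RPM in B16 KO libraries and no island in the 3 B16 control libraries (adjusted p = 0.00612, edgeR's quasi-likelihood test). In MC38 it had 15.3, 10.7 and 1.71 RPM in KO and 9.71, 7.25 and 12.7 RPM in control libraries. The 1 window called in MC38 KO against control, at 115510001 to 115515000 between genes, had 9.34, 10.3 and 3.11 RPM in MC38 KO and no island in MC38 control libraries (adjusted p = 0.0422), where 0.0122% of all windows were called higher and 0.0382% lower. This call was lost with total island reads, with no filter on low counts, with stricter islands and without any 1 of the 6 B16 libraries (adjusted p of 0.0761 to 0.157 without one). Fitted in the 6 MC38 libraries alone, 1 window of the loci was called, which was lower, and without MC38 KO replicate 1 the MC38 count was 14, of which 13 were lower. In B16 that window held 11.1, 13.4 and 8.74 RPM in KO and 9.38, 7.04 and 8.43 RPM in control libraries. By the count of islands alone, 10 of 542 Igh windows had H3K9me3 in B16 KO alone, 1.85%, which is below the 2.16% of the genome, and 0 in control alone (1.25% over the genome).

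Between the lines, the control libraries lay furthest apart at the ends of Igh. In MC38 control 28 of 542 windows were called lower and 4 higher than in B16 control (2.83% of all windows were called lower and 4.29% higher). In 7 of 29 bins, 24.1%, the libraries did not overlap, all lower in MC38 control and all near an end, a smaller share than the 27.9% of bins that were below over the genome. The bin from 115900001 to 116000000, the second from the end and chosen after its values were seen, was covered by 11%, 6.4% and 16.8% in MC38 control and 70.6%, 67.8% and 71.4% in B16 control libraries, and by 18.8%, 4.4% and 8.8% in MC38 KO and 64.2%, 65.8% and 69.8% in B16 KO libraries. It was called at 100 kb (log2 difference -2.86 in the control libraries, adjusted p = 0.00919). In the middle of the array, from 1500 to 1600 kb, MC38 control libraries were at 82.0%, 55.8% and 88.2% and B16 control libraries at 90.4%, 58.2% and 49.6%. MC38 KO libraries spread widely over the locus, with 65.1%, 37.5% and 7.51%, against 40.4%, 24.9% and 53.9% in MC38 control, and the sum differed by -0.52 (log2, exact permutation p = 0.8) and by 0.35 without KO replicate 3.

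Tcrb was the locus that separated the lines. H3K9me3 islands covered 1.15%, 5.07% and 0% of it in MC38 KO and 0.347%, 0.4% and 0.16% in MC38 control libraries, and 81.1%, 74.2% and 77.1% in B16 KO and 69.9%, 66.3% and 68.0% in B16 control libraries. Summed levels were 20.6 ± 34.2 RPM in MC38 and 1620 ± 104 RPM in B16 (SD, n = 6 each). The difference of log2(summed RPM + 1) was -7.51 (exact permutation within genotype, p = 0.005, the smallest possible, adjusted 0.008 over 8 tests). edgeR's quasi-likelihood test called 92 of 145 windows lower in MC38 control than in B16 control (2.83% over all windows). All 8 bins were below B16 control without overlap (27.9% over the genome), by 60.4 to 88.3 points. The island cover did not stop at the locus: over 500 kb on its left it was 0% to 4.64% in MC38 libraries and 55.6% to 64.8% in B16, and on its right 0% to 6.64% and 63.6% to 87.8%.

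The beta chain V segments carried the mark in B16 in both genotypes. Over 30 windows with a V segment, B16 KO libraries were covered by 87.7%, 84.4% and 83.5% and B16 control libraries by 79.6%, 72.4% and 75.7%. The window with Trbv8 and Trbv9, at 41085001 to 41090000, held 15.9, 18.9 and 17.1 RPM in B16 KO and 15.9, 15.8 and 17.5 RPM in B16 control libraries, and no island in any MC38 library (adjusted p = 0.00463 for MC38 control against B16 control). The highest level of the locus was at 40915001 to 40920000, between genes, with 18.5, 21.4 and 19.4 RPM in B16 KO and 16.8, 20.5 and 17 RPM in B16 control libraries, again with no island in MC38 (adjusted p = 0.00351).

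Within B16, the means of the genotypes lay furthest apart at the D, J and C end of Tcrb among its window classes. The 4 windows with those segments were covered by 83%, 85% and 83% in KO and by 0%, 35% and 16% in control libraries. The window at 41535001 to 41540000, with Trbj1-5 to Trbj1-7 and Trbc1, held 14.7, 12.5 and 13 RPM in B16 KO libraries and no island in B16 control libraries or in MC38. It did not pass edgeR's quasi-likelihood test (adjusted p = 0.474). Over the whole locus the B16 sums were 1699 ± 81.7 RPM in KO and 1541 ± 37.1 RPM in control, without overlap (log2 difference 0.14, exact permutation p = 0.1, adjusted 0.533). That direction depended on the scale, since the difference was -0.12 with total island reads and -0.19 relative to the rest of chromosome 6.

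Tcra/Tcrd had little H3K9me3 in any library. Islands covered 2.27%, 4.07% and 3.00% in B16 KO and 2.23%, 3.66% and 1.55% in B16 control, and 7.69%, 7.41% and 1.91% in MC38 KO and 3.97%, 5.34% and 6.36% in MC38 control libraries. The alpha and delta V segments were covered by 0.25% to 0.806% in B16 KO and 0% to 0.583% in B16 control, and by 0.722% to 10.0% in MC38 KO and 2.31% to 4.94% in MC38 control. The 19 windows with D, J or C segments had 5.68%, 16.2% and 19.8% in B16 KO, 4%, 14.1% and 3.37% in B16 control and 0% in all 6 MC38 libraries. Summed over the locus, MC38 had 258 ± 90.5 RPM and B16 130 ± 45.0 RPM (SD, n = 6 each), a log2 difference of 0.96 (exact permutation p = 0.04, adjusted 0.0533). The direction turned when the locus was scaled to the rest of chromosome 14 (-1.06, adjusted p = 0.008), whose coverage was 2.82% to 21.7% in MC38 and 1.54% to 3.01% in B16. KO against control gave log2 differences of 0.25 in B16 (exact permutation p = 0.6) and -0.18 in MC38 (p = 1, exact permutation).

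**Figure D3:**
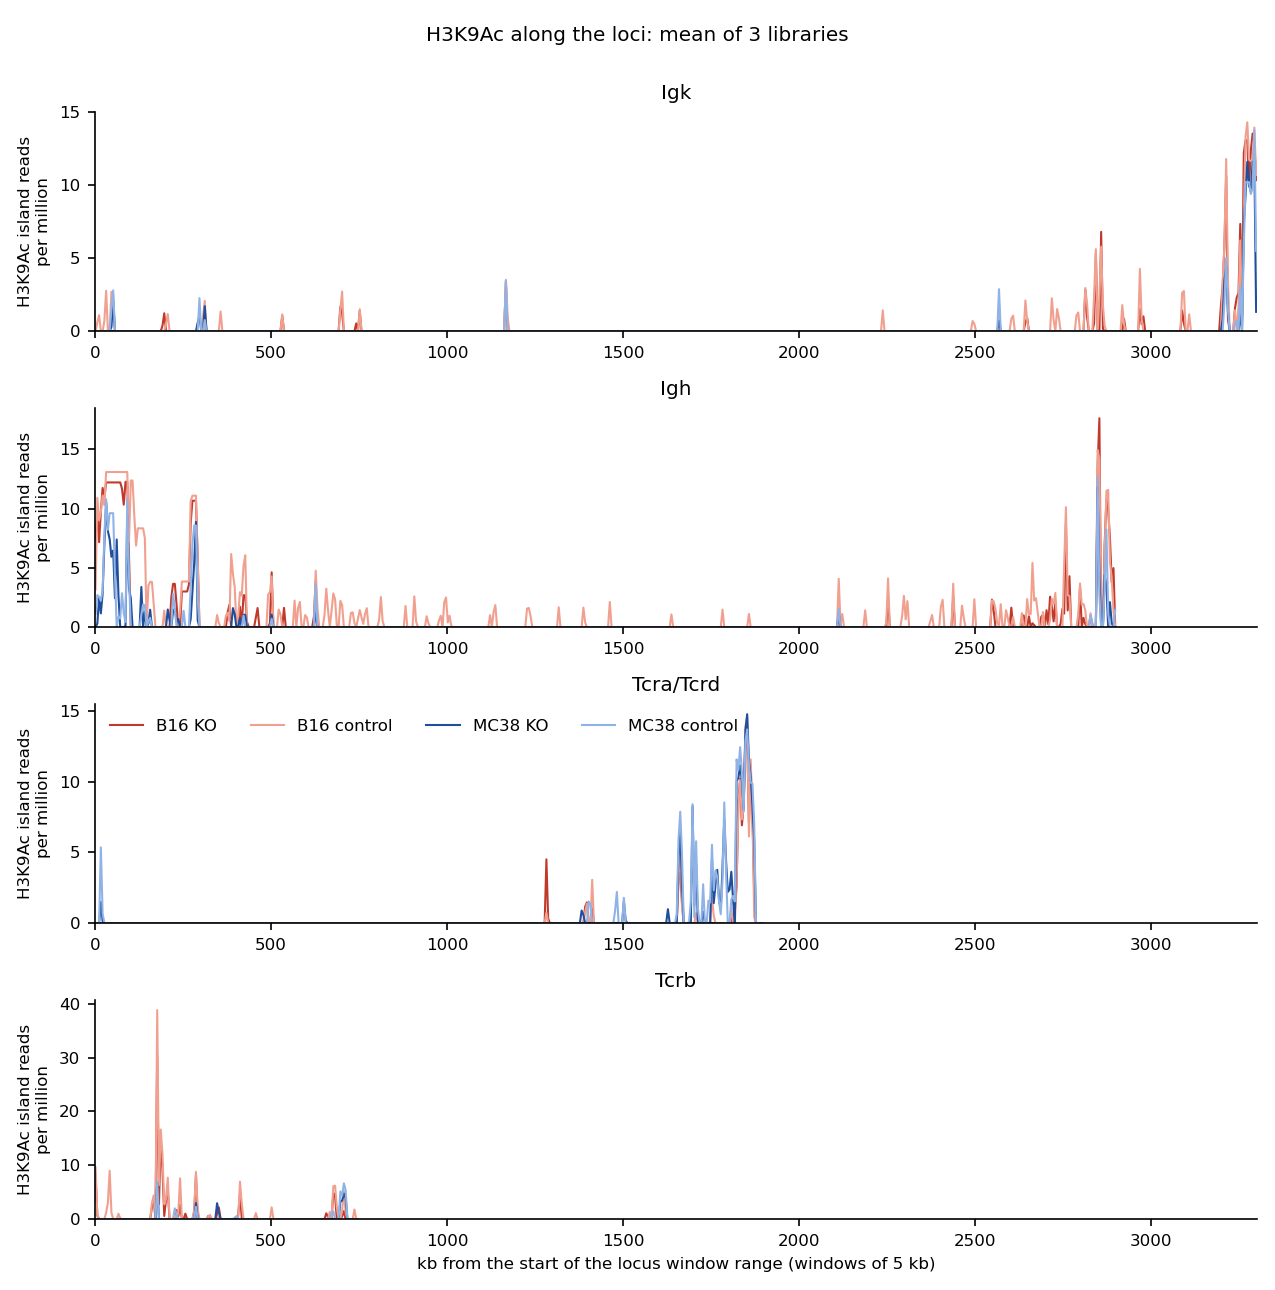
H3K9Ac level (RPM, mean of 3 libraries per group) in 5 kb windows along the 4 loci, by distance from the locus start in kb, for B16 KO, B16 control, MC38 KO and MC38 control. Acetylation is restricted to a few stretches, among them the constant gene end of Igh at the left and the Rpia and Dad1 ends of Igk and Tcra/Tcrd at the right.

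H3K9Ac covered small parts of the loci. By group mean it covered less of the V windows than of windows between genes in Igh and Tcra/Tcrd, and more in Tcrb. In Igk the B16 means were close, 1.30% of V windows and 1.46% between genes in KO and 1.95% and 1.99% in control. The 8 Igk windows of other protein-coding genes had group means of 70% to 74.2%. H3K9Ac covered 1.96%, 2.14% and 2.69% of Igk in B16 KO and 2.25%, 1.58% and 4.72% in B16 control, and 1.11%, 1.07% and 1.61% in MC38 KO and 1.52%, 1.72% and 1.30% in MC38 control libraries. In Igh it covered 5.14%, 7.08% and 7.66% in B16 KO and 8.23%, 6.34% and 17.1% in B16 control, and 2.79%, 1.79% and 3.21% in MC38 KO and 3.06%, 2.92% and 3.11% in MC38 control libraries. B16 control replicate 3 stood above the others in Igk, Igh and Tcrb. Over the Igh V segments it had 15.1%, the other B16 control libraries 2.46% and 1.91%, and the B16 KO libraries 0.418%, 1.60% and 3.1%. The Igk J and C windows had no H3K9Ac island in any library.

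All 4 loci differed in H3K9Ac between the lines, 3 lower in MC38 and 1 higher. Summed levels were 160 ± 32.2 RPM in MC38 and 566 ± 253 RPM in B16 at Igh (log2 difference -1.75), 33.3 ± 17.2 RPM and 152 ± 50.2 RPM at Tcrb (-2.24), 95.6 ± 16.1 RPM and 190 ± 62.7 RPM at Igk (-0.95), and 200 ± 21.6 RPM and 110 ± 8.74 RPM at Tcra/Tcrd (0.85; SD, n = 6 each). No MC38 library overlapped a B16 library at any locus (exact permutation within genotype, p = 0.005, the smallest possible, adjusted 0.008). With each MC38 library paired with the B16 library of the same number and genotype, the adjusted p was 0.05 at each locus, no longer under the threshold. That came from the smallest p that sign flips of 6 pairs allow, so it does not show a weaker difference. Relative to the rest of the chromosome the differences were smaller, -1.24, -1.69, -0.39 and 0.27, in the same directions. KO against control did not separate any locus in either line (unpaired exact permutation p of 0.2 to 0.8). Sign flips of 3 pairs by number allow no p below 0.25, so a paired test of a locus sum could not decide this. In 100 kb bins of the loci edgeR called 0 in B16 (0.00521% of all bins were called higher and 0.0104% lower), 0 in MC38 (0.0208% higher and 0.0208% lower) and 0 for the difference between the lines' KO effects (0.026% higher and 0.0312% lower). At an unadjusted p under 0.05 there were 3 of 58 tested in each, against 541, 631 and 806 of 19208 over the genome. DESeq2 called 2, 1 and 2.

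At Igh a larger share of the windows with D, J or constant segments than of those with a V segment lay under H3K9Ac in every library. Over 26 windows with D, J or constant segments, H3K9Ac covered 28.9%, 49.4% and 43.8% in B16 KO and 53.5%, 38.3% and 65.4% in B16 control, and 15.5%, 10.2% and 20.9% in MC38 KO and 16.9%, 17.4% and 9.23% in MC38 control libraries. The acetylation did not stop at the locus. Over 500 kb on its left, beside the constant gene end, H3K9Ac covered 83.1% to 91.7% in B16 and 69.3% to 78.8% in MC38 libraries. The longest H3K9Ac island touching Igh was 9.0 to 21.8 kb in the MC38 libraries and 53.6 to 81.2 kb in the B16 libraries. These lengths count any part beyond the locus edge. Windows under the same island share its read density, so neighbours are not separate measurements. The window at 113230001 to 113235000 held 11, 12.6 and 13 RPM in B16 KO and 13.1, 11.8 and 14.4 RPM in B16 control, and 9.85, 8.98 and 12.8 RPM in MC38 KO and 10.9, 10.5 and 11.1 RPM in MC38 control libraries, so all 12 had an island there.

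Igha, the constant gene of immunoglobulin A, differed between the genotypes of MC38. The window at 113260001 to 113265000 held 8.78, 6.35 and 7.06 RPM of H3K9Ac in MC38 KO and no island in the 3 MC38 control libraries (adjusted p = 9.95e-05, edgeR's quasi-likelihood test), and 11, 12.6 and 13 RPM in B16 KO and 13.1, 11.8 and 14.4 RPM in B16 control libraries. In B16 it lay under the same islands as the window before, at 113230001. It was the 1 window of the loci called for H3K9Ac in MC38 KO against control (0.0496% of 201802 windows were called higher and 0.0297% lower), and also the 1 called for the difference between the lines' KO effects (adjusted p = 0.000209, 0.145% higher and 0.061% lower over all). Fitted with edgeR in the 6 MC38 libraries alone, 0 windows were called, with 3 at an unadjusted p under 0.05, and with stricter islands 0 were called in the full fit. The window with Ighg2b, at 113305001 to 113310000, went the other way in B16, with no island in KO libraries and 12, 11.9 and 13.2 RPM in control libraries, and did not pass (adjusted p = 0.439). In B16 KO against control 0 windows of the loci were called for H3K9Ac by edgeR (0.134% of all windows were called higher and 0.0159% lower), and DESeq2 called 4 lower. Of 323 tested, 18 had an unadjusted p under 0.05, against 9603 of 201802 over the genome. By islands alone, 5 windows had H3K9Ac in B16 control alone, 3 of them in Igh and 2 in Tcrb, and 0 in KO alone, where 0.737% of all windows with an island in B16 had it in KO alone and 0.0992% in control alone.

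The line contrast of H3K9Ac set MC38 control against B16 control libraries. It called lower 12 of 170 tested windows of Igh, 9 of 44 of Tcrb and 3 of 63 of Igk. In Tcra/Tcrd 4 of 46 were called higher. Over the loci 24 of 323 were lower, where 6.26% of all windows were called lower and 4.71% higher. Without B16 control replicate 1 the total of 28 was 17. At 100 kb 7 of 26 tested bins of Igh, 3 of 18 of Igk and 1 of 6 of Tcrb were lower. Of 8 in Tcra/Tcrd, 1 was higher (12.3% higher and 16.8% lower over all). In Tcra/Tcrd the 4 windows lay at Gm30275 and in the alpha J segments. The window at 54185001 to 54190000, with Traj33 to Traj30, held 6.87, 10.4 and 4.78 RPM in MC38 KO and 9.12, 9.75 and 6.75 RPM in MC38 control, and no island in any B16 library (adjusted p = 0.0021 for the control libraries). Over the 19 D, J and C windows of that locus H3K9Ac covered 29.7%, 12.2% and 29.1% in MC38 KO and 20%, 18.3% and 29.1% in MC38 control, and 1.47%, 2.53% and 2.11% in B16 KO and 1.26%, 1.68% and 3.79% in B16 control. The same J and C end thus carried acetylation in MC38 and, in B16, some H3K9me3.

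In Tcrb the highest H3K9Ac of B16 lay around the trypsinogen-like gene 2210010C04Rik. By group mean, the 100 kb bin of this gene held 77.5 RPM in B16 KO and 105 RPM in B16 control. The last bin of the locus, which holds Trbc1, held 12.7 RPM in B16 KO and 25.8 RPM in B16 control. In MC38 the last bin held more than the bin of the gene. The last bin had 15.4 RPM in MC38 KO and 24.1 RPM in MC38 control, and the bin of the gene 6.78 and 9.71 RPM. The window at 41025001 to 41030000, beside the gene, held 4.9, 10.2 and 5.24 RPM in MC38 KO and 7.21, 9.13 and 4.41 RPM in MC38 control. It held 24.6, 34.5 and 32 RPM in B16 KO and 36.7, 43.9 and 35.9 RPM in B16 control libraries. This window had the highest mean H3K9Ac level of the locus, and the control libraries differed by -2.48 on the log2 scale (adjusted p = 0.00122). The window at 41035001 to 41040000, which holds the gene's start, held 10.2, 21.3 and 12.7 RPM in B16 KO and 12.1, 26.1 and 11.7 RPM in B16 control and no island in MC38 (adjusted p = 0.000624). The 300 bases of the gene's promoter lay under an H3K9Ac island in only 1 B16 KO and 1 B16 control library. 2210010C04Rik was the 1 trypsin-list gene of 12 that was not tested for H3K9me3, with islands in only 2 libraries, at 0.796 and 0.661 RPM. At Trbv1, the first V segment of the locus, H3K9Ac was absent from the island lists of B16 KO and of MC38 libraries, and 9.25, 6.97 and 10.7 RPM in B16 control (window at 40890001, adjusted p = 0.508 for KO against control in B16).

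**Figure D4:**
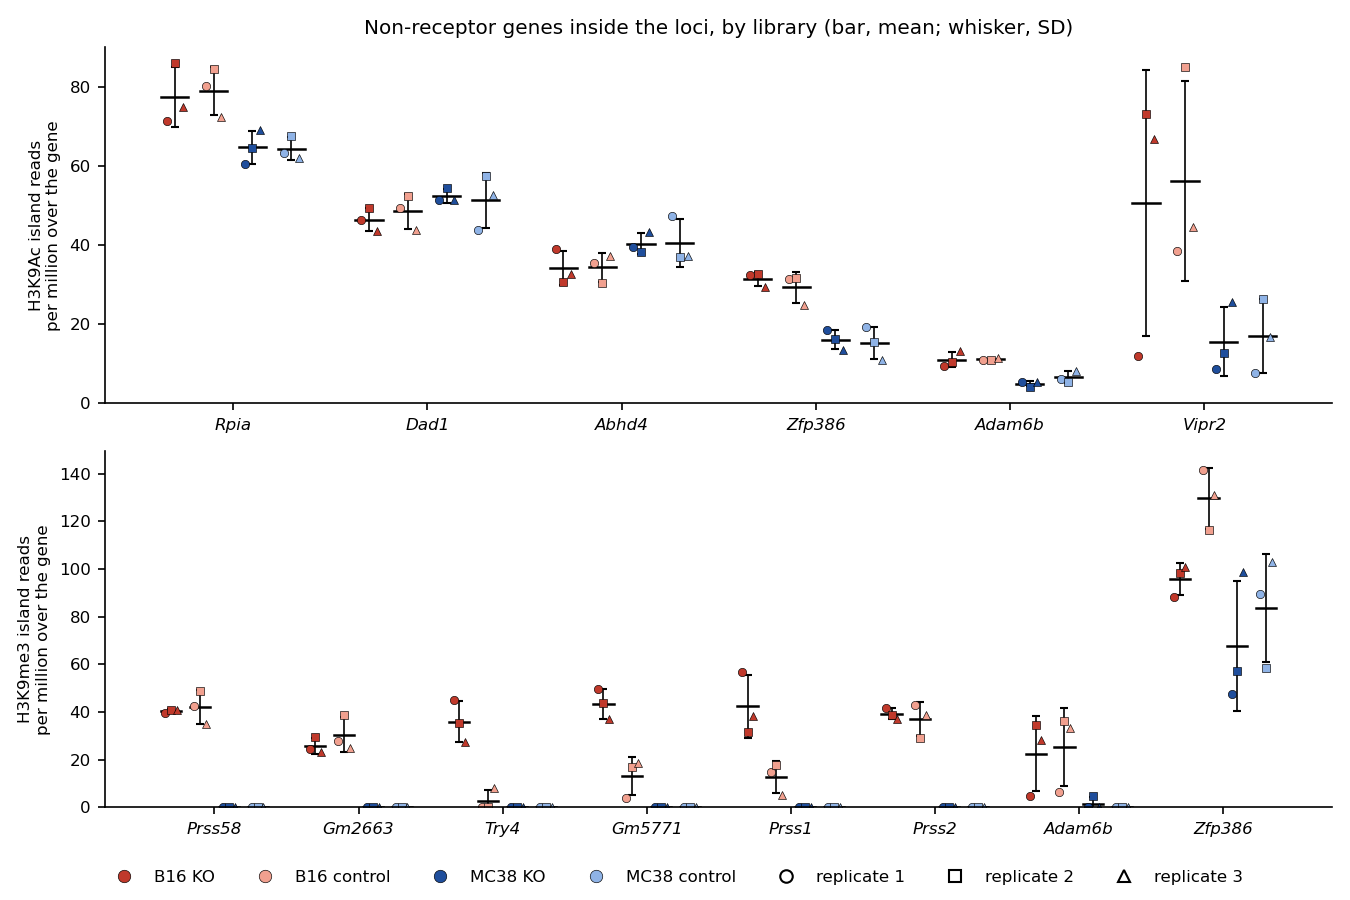
Levels of H3K9me3 and H3K9Ac (RPM over the gene with 2 kb on both sides, 1 point per library) at bystander genes of the loci, for B16 KO, B16 control, MC38 KO and MC38 control. Rpia, Dad1 and Zfp386 are acetylated in all 12 libraries, and the trypsin genes carry H3K9me3 in B16.

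The trypsin genes inside Tcrb carried H3K9me3 in B16 and none in MC38. Trypsins are digestive proteases of the exocrine pancreas. Of the 12 genes of the list, 11 were tested for H3K9me3 and 10 of them were called lower in MC38 control than in B16 control (2.81% of 25672 gene regions were called higher and 4.3% lower). Their summed level was 0 RPM in all 6 MC38 libraries, 313 to 442 RPM in B16 KO and 267 to 283 RPM in B16 control. Prss2 held 41.8, 38.7 and 37.3 RPM in B16 KO and 43, 29.1 and 38.9 RPM in B16 control (adjusted p = 0.00935 between the lines). Moxd2, a monooxygenase-like gene at the V end, held 87.5, 92.2 and 91 RPM in B16 KO and 103, 100 and 104 RPM in B16 control and no island in MC38 (adjusted p = 0.00229).

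No trypsin gene passed the test of KO against control in B16, and the median log2 difference of the 11 was 0.11 (0 over all gene regions). Try4, the exception in the line contrast, held 45, 35.4 and 27.6 RPM in KO and 0, 0 and 8.16 RPM in control libraries. Gm5771 held 49.5, 43.6 and 37 RPM in KO and 3.98, 17.1 and 18.7 RPM in control, and Prss1 57, 31.7 and 38.4 RPM in KO and 15, 18 and 5.18 RPM in control. The libraries of these 3 genes did not overlap, but none passed (adjusted p of 0.833 to 0.865, edgeR's quasi-likelihood test), and 0 of 11 were called in B16 (0.148% of gene regions were called higher and 0.125% lower), with 0 at an unadjusted p under 0.05 and 0 by DESeq2. Prss3, Prss58 and Gm2663 overlapped between the genotypes. The trypsin genes are close copies of each other, and how reads that map to several copies were counted is not given in the sources used here.

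Bystander genes used by most cells were acetylated throughout. Rpia held 71.4, 85.9 and 74.8 RPM of H3K9Ac in B16 KO and 80.2, 84.4 and 72.4 RPM in B16 control, and 60.5, 64.4 and 69 RPM in MC38 KO and 63.3, 67.6 and 62 RPM in MC38 control libraries. Dad1 held 43.6 to 49.3 RPM in B16 KO, 43.8 to 52.4 RPM in B16 control, 51.3 to 54.4 RPM in MC38 KO and 43.8 to 57.6 RPM in MC38 control. Neither gene had an H3K9me3 island in any library, although both adjoin the antigen receptor segments. Zfp386 carried both marks, H3K9Ac of 32.3, 32.6 and 29.4 RPM in B16 KO and 31.5, 31.6 and 24.8 RPM in B16 control, and 18.5, 16.3 and 13.5 RPM in MC38 KO and 19.2, 15.6 and 11.1 RPM in MC38 control (log2 difference of the control libraries -0.93, adjusted p = 0.00937, where 9.79% of 33358 gene regions were called higher and 9.64% lower). Its H3K9me3 was 88.3, 98.2 and 101.04 RPM in B16 KO and 141, 116 and 131 RPM in B16 control, without overlap but not called (adjusted p = 1). Of the 5 olfactory receptor genes beside Tcra, 0 had an H3K9Ac island and 3 had no island of either mark.

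**Figure D5:**
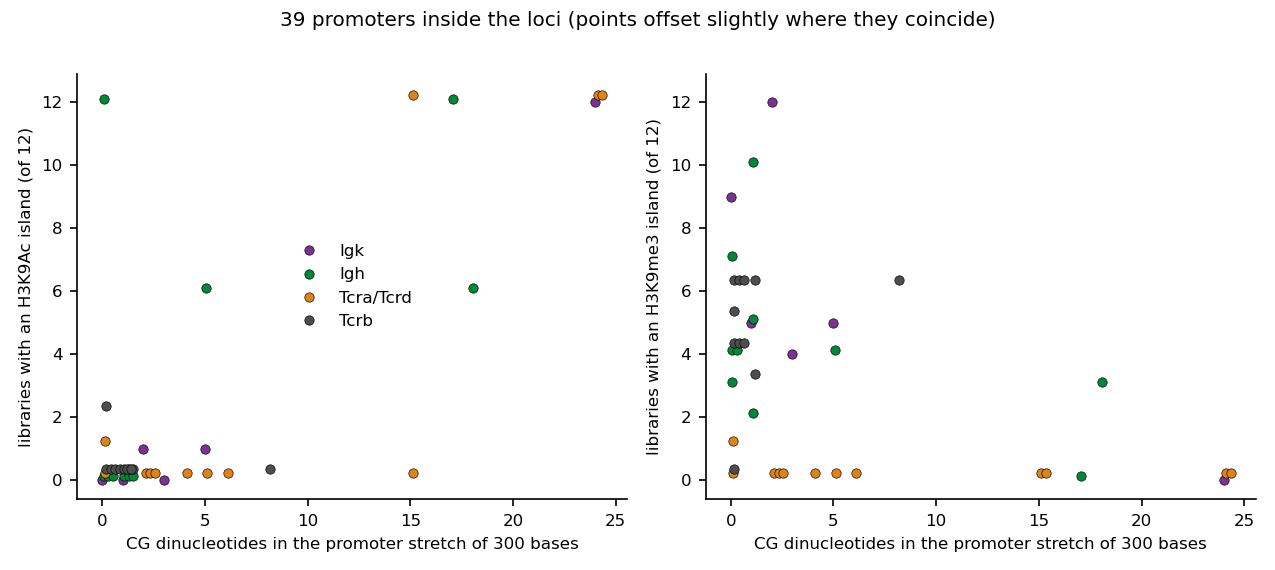
Number of libraries, of 12, with an island of H3K9Ac and of H3K9me3 over each of the 39 promoters in the loci, against the number of CG dinucleotides in the 300 bases. Acetylation in all 12 libraries is found at 5 of the 7 promoters with at least 10 CG dinucleotides.

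Islands were counted over all 39 promoters of the loci. Of 7 locus promoters with at least 10 CG dinucleotides, as in 43.5% of all promoters, 5 lay under H3K9Ac islands in all 12 libraries. These were Rpia, Dad1, Zfp386 and 2 promoters of Abhd4, a lipase gene whose first promoter is the Dad1 stretch read on the opposite strand. Vipr2, the receptor of vasoactive intestinal peptide, held 18 and was acetylated in the 6 B16 libraries alone. It was the 1 of the 7 with H3K9me3 in any library, namely in the 3 B16 KO libraries alone. Gm43305 held 15 and was acetylated in none. Of 32 promoters with fewer, 26 were acetylated in none and 24 had H3K9me3 in at least 1 library, and Adam6b, with 0, was acetylated in all 12. TATAAA was found on either strand in 18 of the 39, against 13.6% of all promoters in the table. The Prss1 promoter lay under H3K9me3 in the 3 B16 KO and in 1 B16 control library and the Try4 promoter in the 3 B16 KO libraries alone.

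Genes of the antigen receptor machinery outside the loci were read from a list of 29. In H3K9me3 21 were tested, 0 were called in B16 KO against control, with 0 at an unadjusted p under 0.05 and 0 by DESeq2, and 1 in MC38, where 0.0117% of gene regions were called higher and 0.105% lower. That gene was Blnk, a B cell adaptor protein, with no island in the 3 MC38 KO libraries and 19.2, 50.8 and 14.9 RPM in MC38 control (adjusted p = 0.0206). Fitted in the 6 MC38 libraries alone it was not called (adjusted p = 0.879), nor without B16 KO replicate 2 or 3 or B16 control replicate 2 or 3 (adjusted p of 0.0629 to 0.0727). Its H3K9Ac was 78, 31.9 and 42.7 RPM in MC38 KO and 19.9, 14.6 and 46.4 RPM in MC38 control libraries, with overlap. In B16 Blnk held 96.1, 251 and 234 RPM in KO and 42.8, 171 and 143 RPM in control libraries, and the difference between the lines' KO effects was called (adjusted p = 0.0163, 0.23% higher and 0.129% lower over all). Rag1, a recombinase subunit, held 42.4, 74.9 and 45.2 RPM in B16 KO and 0, 56.8 and 7.83 RPM in B16 control, with overlap. Between the lines, Syk, a kinase downstream of the B cell receptor, held no H3K9me3 island in MC38 and 47.8, 46.1 and 51.5 RPM in B16 control (adjusted p = 0.011). Its H3K9Ac was 94.6, 166 and 151 RPM in MC38 control and 21.8, 9.88 and 37 RPM in B16 control libraries (log2 difference 2.58, adjusted p = 0.00347). Vpreb3, a gene of the pre-B cell, had less H3K9Ac in MC38 control (14.2, 11.1 and 14.4 RPM) than in B16 control (29.2, 30.8 and 26.2 RPM, adjusted p = 0.0101), and of the 28 genes of the list tested for H3K9Ac these 2 were called between the lines, where 9.79% of all gene regions were called higher and 9.64% lower. For KO against control edgeR called 0 of the 28 in B16 (0.063% of all gene regions were called higher and 0.021% lower), 0 in MC38 (0.0839% higher and 0.042% lower) and 0 for the difference between the lines (0.0839% higher and 0.0959% lower). At an unadjusted p under 0.05 there were 1, 0 and 0, and DESeq2 called 0 in each.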

How the data were processed

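H3K9me3 and H3K9Ac were measured by chromatin immunoprecipitation and sequencing, in 24 libraries. The authors deposited 1 list of islands per library, with a count of reads per island. Per the submitters' processing notes, Bowtie2 2.1.0, SAMtools 0.1.8, SICER 1.1, deepTools 3.1.1 and cutadapt (version not given) were used with the build mm10. As the deposited files are named, islands were built from bins of 200 bp with gaps of 600 bp at a false discovery rate of 5%. Reads outside islands were not in the lists, so a signal under the caller's threshold reads as 0, and whether an input was subtracted from the counts is not given in the sources used here.

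Island reads were shared among 5 kb windows, 100 kb bins and genes with 2 kb on both sides by the length of overlap, so windows under the same island have the same density. edgeR 4.0.16 (quasi-likelihood test, TMM scaling, 12 libraries per mark, 1 term per group, mean of at least 10 reads) was run over all windows of the autosomes and the X chromosome, with Benjamini-Hochberg adjustment and a threshold of 0.05. Locus sums were compared as log2(RPM + 1) by exact two-sided permutation, where 3 against 3 libraries allow no p below 0.1 and 6 against 6 within genotype none below 0.005. Alternatives were total-read and DESeq2 scaling, stricter islands (the weakest 25% left out), no filter, limma 3.58.1 on log2(RPM + 0.5), DESeq2 1.42.0 (windows whose fit did not converge left out), a replicate block and each library left out. Scaling to the rest of the chromosome was added after seeing the data. Python 3.11.15, numpy 2.4.6 and pandas 2.3.3 were used. edgeR's test of B16 KO against control was first tried on simulated counts of 100 kb bins. The 5 kb windows, the other contrasts and the other tests were not simulated.

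Libraries with the same number deviated together in H3K9Ac (correlations of 0.182 to 0.531 over windows, all 6 above 0.1), so the numbers were taken to pair those libraries in the alternatives. The main tests did not use this pairing. The correlations were taken within each line, so they do not cover pairs of an MC38 with a B16 library. The labels do not say what a number marks.

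The loci and gene lists were chosen with earlier results of these data known. Named windows were, per mark and contrast, up to 6 called in each direction by smallest p, the 2 with the smallest p of KO against control per locus and line, and the 3 with the highest mean level per locus. Gene names and promoter sequences came from RefSeq (GRCm38.p6, 49997 genes). Summed epithelial marker genes had 142 to 178 RPM of H3K9Ac in MC38 control and 125 to 168 RPM in B16 control libraries, with 1 of 7, Krt8, called higher.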

Additional observations from a re-analysis of the deposited data

Results flagged for a closer look

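Flagged here are results where the effect of Setdb1 KO differed between the lines by edgeR's quasi-likelihood test of the difference itself, with Benjamini-Hochberg adjustment over all windows or genes. For H3K9me3 16 of 1437 tested windows of 5 kb in the loci passed (0.318% of all windows were called higher and 0.0982% lower). For H3K9Ac 1 of 323 passed (0.145% higher and 0.061% lower over all).

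In 6 named windows of Igk, H3K9me3 islands were found in all 3 B16 KO libraries, in no B16 control library and in all 6 MC38 libraries. The adjusted p of the difference was 0.00326 at 68020001, 0.00326 at 68385001, 0.00458 at 69695001, 0.00478 at 70020001, 0.00595 at 68330001 and 0.00653 at 69140001. The Igh window with Ighv1-17, at 114675001, had the same pattern (adjusted p = 0.0129). With stricter islands, the difference at 68330001, 68385001, 69140001 and 114675001 was not called.

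The Igh window at 115510001 had the reverse pattern, with islands in all 3 MC38 KO libraries, in no MC38 control library and in all 6 B16 libraries (adjusted p = 0.0213). Leaving out B16 KO replicate 2 gave an adjusted p of 0.0618 and leaving out B16 KO replicate 3 gave 0.0594.

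For H3K9Ac the window with Igha, at 113260001, had islands in all 3 MC38 KO libraries, in no MC38 control library and in all 6 B16 libraries (adjusted p = 0.000209). With stricter islands it was not called (adjusted p = 0.717).

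Blnk, outside the loci, had no H3K9me3 island in MC38 KO libraries and had islands in the other 9 libraries (adjusted p = 0.0163).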

How the results depend on the processing

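The count of 5 kb windows called for H3K9me3 in B16 KO against control, 16, was 0 in the 6 B16 libraries alone, 8 with stricter islands, 10 with a replicate block and 98 with DESeq2. limma, which was fitted only on windows with islands in every library and so could test none of the 16, called 0. Without 1 library it was 13 to 51. In MC38 KO the count of 1 was 0 with total reads, no filter, stricter islands, limma and the block, 6 with DESeq2, and 0 to 14 without 1 library. The difference between the lines' KO effects, 16, was 6 with stricter islands, 0 with limma, 5 with the block, 52 with DESeq2 and 11 to 52 without 1 library. The line count, 171, was 9 with limma, 9 with the block, 282 with DESeq2 and 118 to 228 without 1 library. In 100 kb bins the B16 KO count of 0 was 1 with the block and 1 with DESeq2, MC38 KO and the difference gave 0 to 1 without 1 library, and the line count of 13 was 8 with DESeq2 size factors, 8 with total reads, 20 with DESeq2 and 2 to 18 without 1 library.

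For H3K9Ac at 5 kb, DESeq2 called 4 windows in B16 KO (0 with edgeR), 4 in MC38 KO, 5 for the difference and 48 for the lines. The MC38 KO count of 1 was 0 in MC38 alone, with stricter islands and with limma, and 1 to 2 without 1 library. The difference of 1 was 0 with stricter islands and with limma and 1 to 3 without 1 library. The line count of 28 was 5 with limma and 17 to 31 without 1 library. At 100 kb DESeq2 called 2 in B16 KO, 1 in MC38 KO and 2 for the difference, and without 1 library B16 KO and the difference gave 0 to 1 and the lines 9 to 13.

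Among locus sums (log2), the H3K9me3 line difference was 1.30 at Igk relative to the chromosome, -1.05 at Igh with total reads, and at Tcra/Tcrd 0.81 with total reads and -1.06 relative to the chromosome. Signs turned in KO against control at Tcra/Tcrd (-0.0063 with total reads and -0.0007 with stricter islands in B16, 0.15 relative to the chromosome in MC38) and at Tcrb in B16 (-0.12 with total reads, -0.19 relative to the chromosome). Paired by number, the line differences of -7.51 (Tcrb, H3K9me3) and of -0.95, -1.75, 0.85 and -2.24 (H3K9Ac) had an adjusted p of 0.05, from the smallest p that sign flips of the pairs allow. Without 1 library, H3K9me3 KO differences ran from -0.79 to 0.0863 (Igk), -1.19 to 0.35 (Igh), -0.50 to 0.38 (Tcra/Tcrd) and -0.68 to 2.57 (Tcrb) in MC38 and from -0.0749 to 0.56 at Tcra/Tcrd in B16, and line differences from -1.11 to -0.49 (Igh) and 0.81 to 1.21 (Tcra/Tcrd). H3K9Ac KO differences ran from -0.49 to 0.10 (Igk, B16), -0.13 to 0.0338 (Tcra/Tcrd, B16) and -0.75 to 0.13 (Tcrb, MC38). Windows covered in the 3 libraries of 1 genotype alone numbered 30 (H3K9me3) and 3 (H3K9Ac) in B16 and 0 and 1 in MC38 when 2500 bp were required, 1 and 0 in MC38 with stricter islands, and without 1 library 81 to 194 and 5 to 24 in B16 and 2 to 59 and 3 to 6 in MC38.

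H3K9me3 libraries with the same number did not all deviate together (correlations of -0.159 to 0.297), so the replicate block is given for that mark only here. With it 14 calls of named windows and 15 of named genes were lost for H3K9me3, among them all 10 trypsin genes and Syk between the lines and both calls of Blnk. For H3K9Ac the block moved no count by more than 1.5 times, and the line difference was not called at Prss58 (adjusted p = 0.227) or in the windows at 40890001 (0.214), 113305001 (0.178) and 113310001 (0.211), by edgeR, and no other call of a named window or gene was lost. The causes were not tested. Island lists hold no reads below the caller's threshold, so an island missing from 3 libraries can be a small difference in signal, and the permutation test of 3 against 3 libraries cannot bring the sum of 1 locus under an adjusted p of 0.05.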
